A study of Rattus norvegicus with 8 samples.

Results

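The miR-34 family is a small group of microRNAs whose genes are regulated by the tumour suppressor p53. Its members rno-miR-34a-5p, rno-miR-34b-5p and rno-miR-34c-5p were chosen by name and make up 3 of the 758 rat miRNAs on the array, with 6 of its 1806 probes (2 per member, 8 spots per probe). The family was measured on 8 arrays in synovium, the tissue that lines the joint cavity, from left knees of Sprague-Dawley rats. In the 4 ACLT samples the anterior cruciate ligament was cut, which destabilizes the knee and is used as a surgical model of osteoarthritis. In the 4 sham samples the ligament was exposed by the same approach and left whole. Per the labels, the tissue was taken on the side away from the incision, no other allele or agent is named for either group, and the sampling time is given as 14 days, 2 weeks or 7 days in different fields. The samples are numbered, with no statement that each came from a different animal, so a p-value here covers the spread among these samples alone, and that spread may be technical.

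p53 binds the promoters of the miR-34 genes and raises their transcription after DNA damage and other stress, and the mature miRNAs repress messenger RNAs of cell cycle drivers such as CDK6 and CCND1, of the survival factor BCL2 and of the deacetylase SIRT1. miR-34a is made from its own transcript and is found in many tissues, while miR-34b and miR-34c come from a shared transcript that is most abundant in multiciliated epithelium and testis. In joint tissue, miR-34a has been studied in chondrocytes and synoviocytes for its effects on apoptosis and senescence.

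The mature sequences are shown because the 3 members share the bases that select their targets and differ behind them. Capitals mark the seed, bases 2 to 8 from the 5′ end. All sequences are those of RefSeq for the rat assembly GRCr8, in which 3 of 3 members were matched by name.
miR-34a-5p: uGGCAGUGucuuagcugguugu
miR-34b-5p: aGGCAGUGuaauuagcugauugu
miR-34c-5p: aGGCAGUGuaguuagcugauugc
The seed GGCAGUG was held by 5 of the 693 mature names in the RefSeq table, namely the 3 members and rno-miR-449a-5p and rno-miR-449c-5p, relatives that are made in multiciliated cells. miR-34b-5p and miR-34c-5p, both 23 bases long, differed at the positions A11G and U23C, counted from the 5′ end with the base of miR-34b-5p first. miR-34a-5p, 22 bases long, had 8 bases from base 2 onward in common with miR-34b-5p and with miR-34c-5p, and the longest further run that it had in common with either of them was 7 bases, UUAGCUG. A probe for miR-34b-5p could also bind its near-identical relative miR-34c-5p, and the reverse. Such cross-hybridization was not tested.

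The family lies at 2 places in GRCr8. The hairpin of miR-34a, 102 bases long, is at chr5:165815952-165816053 on the plus strand and overlaps the interval of the gene LOC103692514. It is printed here because both of its arms were on the array, and capitals mark the 5p arm and then the 3p arm.
Mir34a hairpin: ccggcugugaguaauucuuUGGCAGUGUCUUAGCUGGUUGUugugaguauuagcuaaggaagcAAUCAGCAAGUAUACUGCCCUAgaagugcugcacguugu
The hairpins of miR-34b and miR-34c are on the minus strand at chr8:60306609-60306692 and chr8:60306091-60306167, 441 bases apart. Both overlap the interval of the protein-coding gene Hoatz, and the next gene, Btg4, lies 397 bases from the miR-34b hairpin. Whether they lie in an exon or an intron was not analysed here. The array's own grid names the older build rn4, so these coordinates describe the genes and not the probes' design.

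Depth on an array shows as signal over background. Between 10.5% and 17.0% of the spots on an array were well above background, no spot was saturated (0 on every array), and of the 758 miRNAs 103 were found on every array and 199 on 1 or more. The arrays fell into 3 brighter ones (ACLT 1, ACLT 2 and sham 4), whose 75th percentile over commonly detected probes was 797 to 1185, and 5 dimmer ones at 289 to 353, so the brighter class held 2 ACLT arrays and 1 sham array. Of markers fixed for other cell types, the 3 mesenchymal miRNAs of synovium were all detected (summed scaled level 5.25 to 8.48 after ACLT and 4.61 to 7.20 in sham). Striated muscle markers were detected for 6 of 8 (summed level 0.360 to 16.5 after ACLT and 1.61 to 6.43 in sham), and leukocyte markers for 6 of 6 (0.512 to 0.623 and 0.547 to 0.658). Markers of cartilage were detected for 4 of 4 (0.452 to 0.779 after ACLT and 0.331 to 0.644 in sham). Erythroid markers were detected for 3 of 3 (0.521 to 0.969 and 0.490 to 1.48) and endothelial ones for 1 of 2 (0.900 to 1.12 and 0.941 to 1.43). Epithelial markers were detected for 0 of 6 and those of multiciliated epithelium, miR-449a-5p and miR-449c-5p, for 0 of 2. Detected here means on 1 or more arrays. In each sum, a member under the floor, a scaled level of 0.0449, was counted at that floor. The lowest muscle sum, 0.360, was about that of 8 members at the floor. This is bulk tissue, in which fewer cells of a type and less RNA per cell cannot be told apart.

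Of the family, only miR-34a-5p was measured well above background in every sample. miR-34b-5p was close to the background of the array, and miR-34c-5p stayed under the 95th percentile of the negative-control spots. In these synovia the family's level could therefore be compared between ACLT and sham for 1 member of 3. Levels of different miRNAs are not set against each other, since probes differ in how brightly they report the same amount of RNA.

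miR-34a-5p was read by 2 probes, and the unscaled processed signal of the brighter one was 399.8 (ACLT 1), 687.3 (ACLT 2), 146.1 (ACLT 3) and 122.1 (ACLT 4) after ACLT. In sham samples it was 115.8 (sham 1), 88.5 (sham 2), 74.3 (sham 3) and 525.8 (sham 4). The 3 brighter arrays thus gave the 3 highest readings, and the unscaled signal spanned 9.25-fold over the 8 arrays. The spots of this probe on an array varied little, with a coefficient of variation of 1.49% to 10.4%. The dimmer probe gave 170.9, 272.9, 72.3 and 55.1 on ACLT arrays 1 to 4 and 56.0, 48.0, 42.1 and 212.4 on sham arrays 1 to 4. It placed the same 3 arrays on top and spanned 6.48-fold. Both probes were above the 95th percentile of the negative-control spots (11.9 to 14.8) on all 8 arrays.

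Each array was then divided by its 75th percentile, which puts the arrays on a common scale, and log2 was taken. On this scale the brighter probe of miR-34a-5p stood at -0.996, -0.67, -1.27 and -1.32 on ACLT arrays 1 to 4 and at -1.32, -1.84, -2.25 and -1.17 on sham arrays 1 to 4. The range over arrays shrank to 2.98-fold. From highest to lowest the order was ACLT 2, ACLT 1, sham 4, ACLT 3, sham 1, ACLT 4, sham 2 and sham 3. On this probe the split by array brightness thus remained after scaling. The 3 brighter arrays stood at -1.17 to -0.67 and the 5 dimmer ones at -2.25 to -1.27. The groups overlapped: ACLT 1 and ACLT 2 were above every sham sample, sham 2 and sham 3 were below every ACLT sample, and the other 4 samples lay between and interleaved. Among those 4, the steps from ACLT 3 to sham 1 (0.047) and from sham 1 to ACLT 4 (0.0021) were within 2 standard errors of the spot means, so these neighbours did not differ beyond their spread. The step from sham 4 to ACLT 3 (0.10) was beyond 2 standard errors and within the SD of the spots. The step from ACLT 4 down to sham 2 was 0.52, and the step from sham 2 to sham 3 was 0.41. On the dimmer probe the order was ACLT 2, ACLT 1, ACLT 3, sham 1, ACLT 4, sham 4, sham 2 and sham 3. There ACLT 3 (-2.29) stood above sham 4 (-2.48), so the probes disagreed on the place of sham 4.

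**Figure D1:**
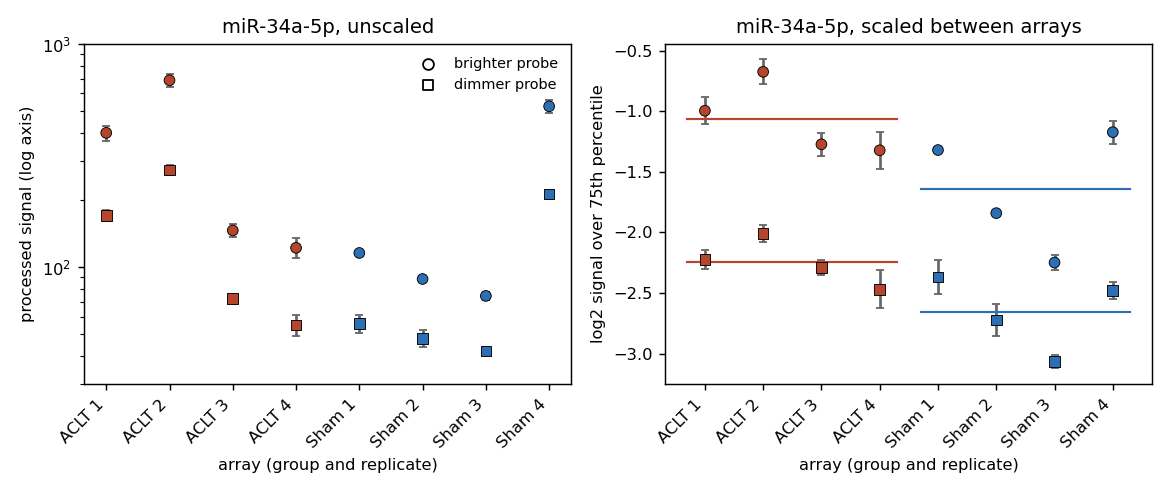
Signal of miR-34a-5p on each of the 8 arrays, unscaled on a log axis (left) and as log2 of the signal over the array's 75th percentile (right). Circles are the brighter and squares the dimmer probe, red is ACLT and blue is sham, error bars are the SD of a probe's spots, and horizontal lines are group means. Unscaled, ACLT 1, ACLT 2 and sham 4 are highest, and after scaling sham 2 and sham 3 lie lowest on both probes.

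After ACLT the log2 level of miR-34a-5p averaged -1.07 ± 0.30 (SD, n = 4), and in sham samples it averaged -1.65 ± 0.49 (SD, n = 4). On this brighter probe all 4 ACLT samples were above the sham mean, and 13 of the 16 pairs of an ACLT and a sham sample had the higher level in ACLT. The difference was 0.58 on the log2 scale (SE 0.27, 95% interval -0.06 to 1.22), a fold of 1.49 with an interval of 0.960 to 2.33. It did not pass the test, since limma, fitted over all 113 miRNAs detected throughout a group, gave an adjusted p of 0.645 (0.0689 unadjusted). The exact two-sided permutation test over 70 arrangements gave p = 0.143, where 0.0286 is the smallest p it can give. The spread of miR-34a-5p between samples was wider than the median SD over the 113, which was 0.22 after ACLT and 0.28 in sham samples.

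As background, 0 of 113 tested miRNAs (0%) passed limma's adjusted threshold of 0.05, and before adjustment 8 (7.08%) were under 0.05. miR-34a-5p was in neither count. Groups without overlap were found for 0 of 113 (0%). Of the 113 differences, 38 were above 0, 73 below and 2 exactly at 0, with a median of -0.07. The difference of miR-34a-5p ranked 3 of 113 from the top, 0.65 above that median, and 11 of 113 by p.

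**Figure D2:**
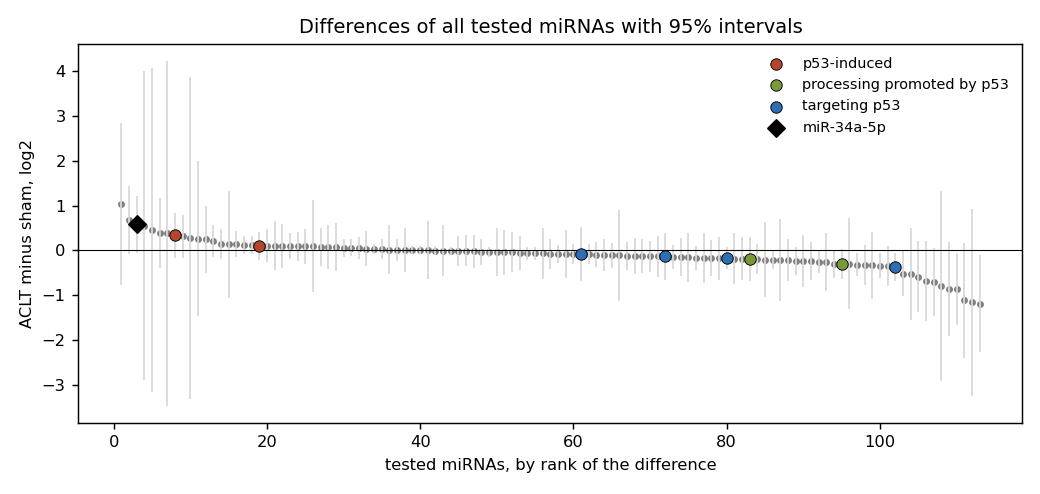
ACLT minus sham difference (log2) of each of the 113 tested miRNAs, ordered from highest to lowest, with 95% intervals from limma as vertical lines. The black diamond is miR-34a-5p, at rank 3 and 0.58, and coloured points are the tested miRNAs of the lists tied to p53. The interval of miR-34a-5p reaches below 0.

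The probes of miR-34a-5p had the same sign and different size. In a fit over the 153 probes well above background, the brighter probe differed by 0.58 (SE 0.27, 95% interval -0.03 to 1.19) and the dimmer one by 0.41 (SE 0.19, 95% interval -0.01 to 0.84), both with a limma adjusted p of 0.564. The fold on the dimmer probe was 1.33, from -2.25 ± 0.19 (SD, n = 4) after ACLT to -2.66 ± 0.31 (SD, n = 4) in sham samples. The probes' differences lay 0.17 apart on the log2 scale, with p = 0.257 in an exact permutation test (two-sided). Of the 153 probes, 0 (0%) passed after adjustment and 10 (6.54%) were under 0.05 before it. Both probes read the same RNA, so they are repeat readings and not replicates.

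The size of the miR-34a-5p difference moved with how the arrays were brought to 1 scale, and its sign did not. It was 0.96 when all probes entered the 75th percentile, 0.90 without scaling, 0.68 after quantile normalization, 0.72 with striated muscle probes left out of the percentile and 0.38 when arrays were scaled to the labelling spike-in probes. The median difference of all tested miRNAs moved along with it, from -0.28 under spike-in scaling to 0.25 with all probes. Relative to that median, miR-34a-5p was higher after ACLT by 0.65 to 0.72 under these scalings. Apart from quantile normalization, each setting divides an array by 1 number, which shifts all levels above the floor alike. Those settings could therefore hardly change the value relative to the median. No scaling brought its limma adjusted p below 0.615. The 95% interval lay above 0 with muscle probes left out (0.12 to 1.32).

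After scaling, the 3 brighter arrays were set against the 5 dimmer ones in a fit that also held ACLT against sham. For miR-34a-5p that contrast, adjusted for group, was 0.53 (SE 0.22), which did not pass the test (limma adjusted p = 0.133). That contrast called 26 of the 113 miRNAs, 8 higher and 18 lower, and miR-34a-5p was not among them. With the brightness class as a block, chosen after the data were seen, the ACLT minus sham difference was 0.45 (SE 0.21, 95% interval -0.07 to 0.97, limma adjusted p = 0.415). Within the 5 dimmer arrays it was 0.51 (95% interval -0.35 to 1.36) and within the 3 brighter ones, with 1 sham array, 0.34 (95% interval -1.20 to 1.87). The slide's rows each held 2 arrays of either group, and the difference was 0.75 in the first row and 0.41 in the second, and limma's interaction term for the rows was -0.33 (adjusted p = 0.797). Sham 3, the lowest array, and sham 4, the highest sham array on the brighter probe, each moved the value. It was 0.38 without sham 3 and 0.74 without sham 4, where the interval was 0.09 to 1.39 and the limma adjusted p 0.215.

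**Figure D3:**
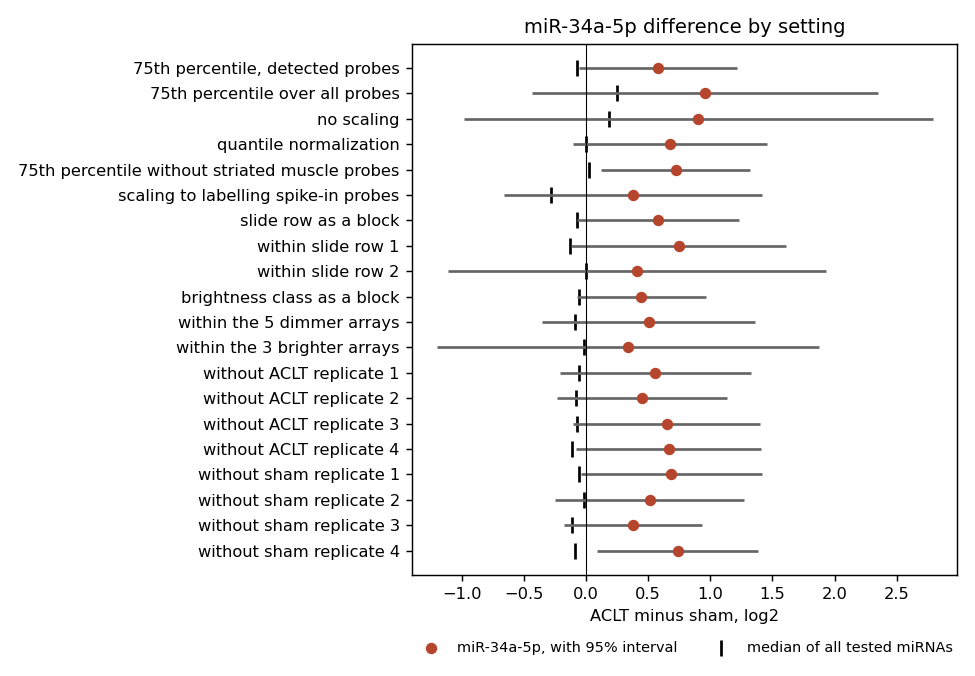
ACLT minus sham difference of miR-34a-5p (log2, points) with its 95% interval (lines) under 20 ways of scaling, blocking or leaving out arrays, and the median difference of all tested miRNAs under each (ticks). Every point lies to the right of 0 and to the right of its tick, and most intervals cross 0.

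For miR-34b-5p, the scanner software called the miRNA detected on 4 arrays: ACLT 1, ACLT 2, ACLT 4 and sham 4. Its brighter probe gave 19.7, 27.0, 10.8 and 11.8 on ACLT arrays 1 to 4. On sham arrays 1 to 4 the same probe gave 10.9, 9.62, 11.1 and 28.3. The 3 brighter arrays stood at 19.7 to 28.3 and the 5 dimmer ones at 9.62 to 11.8, so these signals split by array brightness and the groups overlapped almost fully. By spots, the probe was well above background on 2 arrays, ACLT 2 and sham 4, and it was above the negative controls' 95th percentile on 3. The dimmer probe gave 5.27, 9.44, 1.44 and 3.46 on ACLT arrays and 2.28, 3.07, 2.24 and 9.97 on sham arrays, above that percentile on 0 arrays. That percentile is one of single spots, while a probe's value is a mean over spots. Against the mean of the negative-control spots (4.71 to 6.51), the brighter probe was higher on all 8 arrays and the dimmer one on 2.

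Detection of miR-34b-5p on 3 ACLT arrays and 1 sham array gave p = 0.486 in Fisher's exact test (two-sided). Among the 96 miRNAs detected on some arrays but not on all, 48 (50%) were detected on more ACLT than sham arrays and 25 (26%) on fewer. All 3 brighter arrays were among those that detected miR-34b-5p, as for 40 of the 96 (41.7%). Scaled to the array, its signal was below the floor of 0.0449 (log2 -4.48) on all 8 arrays, so no fold between ACLT and sham is given. The floor is 1 scaled value for all arrays and so lies at a higher signal on brighter arrays. On ACLT 2 and sham 4 the brighter probe read 27.0 and 28.3. The lowest signals well above background there were 17.3 and 14.8, so a place below the floor did not mean background on those arrays.

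miR-34c-5p was called detected on 1 array, sham 4 (Fisher's exact test two-sided, p = 1). Its brighter probe gave 5.88, 8.74, -0.11 and 1.04 on ACLT arrays 1 to 4 and 2.13, -0.09, 0.86 and 10.3 on sham arrays 1 to 4. The other probe gave 1.13, 1.80, -1.65 and 0.53 on ACLT arrays and 1.19, -0.36, 3.22 and 1.21 on sham arrays. No probe of miR-34c-5p was well above background, or above the negative controls' 95th percentile, on any array (0 of 8). Negative-control spots averaged 4.71 to 6.51 with an SD of 3.38 to 3.84, and only the brighter probe passed that mean, on 3 arrays. Sham 4 was the array with the highest 75th percentile, and of the 23 miRNAs detected on exactly 1 array, 12 (52.2%) were detected on that one. The 95th percentile is that of single spots, while a probe's value is a mean over spots. On sham 4 the brighter probe read 10.3, against a negative-control mean of 6.35 (SD 3.51 of spots). Apart from the software's call on sham 4, miR-34c-5p was not told apart from background by these measures, and no fold is given.

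**Figure D4:**
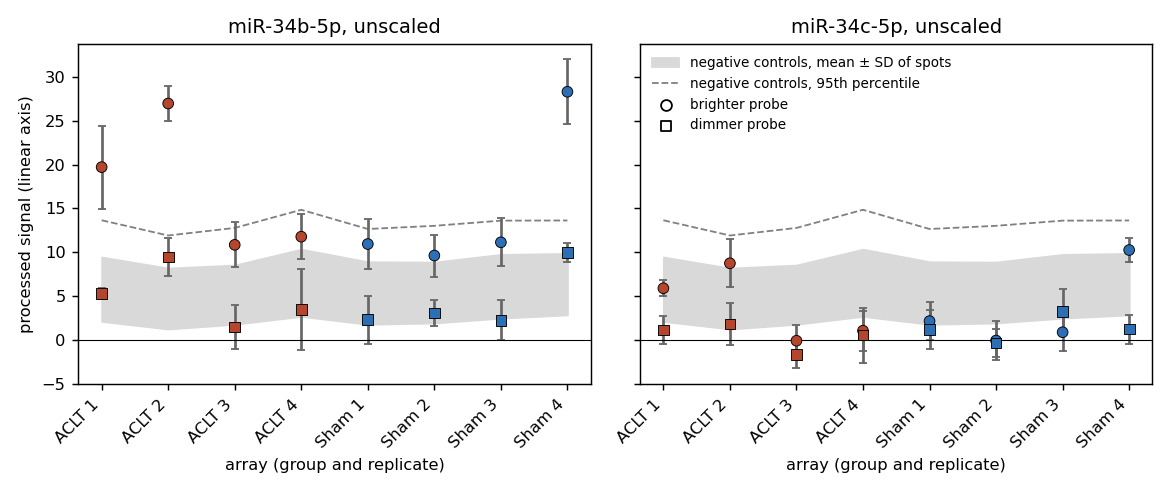
Unscaled processed signal of miR-34b-5p (left) and miR-34c-5p (right) on each array, on a linear axis. Circles are the brighter and squares the dimmer probe, red is ACLT and blue is sham, error bars are the SD of spots, the grey band is the mean ± SD of the array's negative-control spots and the dashed line their 95th percentile. Only the brighter probe of miR-34b-5p exceeds the dashed line, on ACLT 1, ACLT 2 and sham 4.

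The other strands of the family's hairpins were not detected. miR-34a-3p, miR-34b-3p and miR-34c-3p, the passenger strands that are mostly discarded when the 5p strand is loaded, were detected on 0 arrays, and every one of their probes read below 0 on every array (-10.0 to -0.54). The relatives with the same seed were not detected either. The probes of miR-449a-5p read 4.14 to 8.24 and those of miR-449c-5p -5.03 to 5.07, on 0 arrays above the negative controls' 95th percentile. Of the 5 miRNAs with the seed GGCAGUG, miR-34a-5p alone was thus measurable on all 8 arrays.

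Other miRNAs tied to p53 were grouped by their role. Of 8 miRNAs that p53 induces, 3 were detected on any array, and miR-192-5p, miR-194-5p, miR-215, miR-200c-3p and miR-141-3p were detected on none. The 2 that could be tested had differences above 0 and neither passed (0 of 2 in each direction, median 0.22 against -0.07 over all 113). miR-22-3p, which restrains cell cycle proteins, stood at 1.32, 0.97, 1.29 and 1.32 on ACLT arrays 1 to 4 and at 0.75, 0.77, 0.53 and 1.49 on sham arrays 1 to 4. Sham 4 had the highest level and the other 3 sham arrays were below every ACLT array, so the groups overlapped by 1 array. Its difference was 0.34 (SE 0.21, limma adjusted p = 0.785), and it was above 0 without scaling and under the other 4 scalings too (0.14 to 0.72). miR-107-3p, which restrains CDK6, differed by 0.10 (SE 0.13, limma adjusted p = 0.840) and by -0.10 under spike-in scaling. miR-145-5p was detected on 1 ACLT and 3 sham arrays and was not tested.

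Of 3 miRNAs whose processing p53 promotes, miR-16-5p and miR-143-3p were tested, with differences of -0.20 (SE 0.21) and -0.30 (SE 0.14) and a median of -0.25. Of 6 miRNAs that target the p53 messenger, 4 were tested and all 4 had differences below 0, with a median of -0.15. Differences below 0 were found for 73 of all 113. miR-30d-5p, in the latter group, was at the floor on the 3 brighter arrays (ACLT 1, ACLT 2 and sham 4). It was called detected on all 4 arrays of each group, and the floor is 1 scaled value for all arrays. In both groups of miRNAs 0 members passed in either direction. The largest of these differences in size was that of miR-125b-5p (-0.38, SE 0.13, limma adjusted p = 0.645). Its level was 1.39, 1.46, 1.38 and 1.31 on ACLT arrays 1 to 4 and 1.90, 2.04, 1.65 and 1.46 on sham arrays 1 to 4, where sham 4 was the only sham array at or below an ACLT array. The sign of the medians moved with the scaling of all miRNAs. When all probes entered the 75th percentile they were 0.13 for the processing group and 0.14 for the group targeting p53, where the median of all 113 was 0.25, and without scaling they were 0.075 and 0.088, where it was 0.19. They were -0.38 and -0.018 after quantile normalization (all miRNAs 0.0043), -0.11 and -0.012 with muscle probes left out (all miRNAs 0.029), and -0.45 and -0.40 under spike-in scaling (all miRNAs -0.28). Both medians thus lay below that of all tested miRNAs under each of these scalings. Apart from quantile normalization, these settings shift all levels above the floor alike and could hardly change that order. After quantile normalization, and with muscle probes left out, the group targeting p53 had 2 differences above 0 and 2 below. miR-33-5p and miR-504 were detected on 0 arrays.

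Across the 8 arrays, the levels most like those of miR-34a-5p were those of miR-21-5p, a miRNA raised in many inflamed and fibrotic tissues. Among 77 other tested miRNAs above the floor everywhere, its correlation with miR-34a-5p was the highest (Pearson r = 0.970, Spearman rho = 0.976, n = 8 arrays), where the median r was 0.0977 and the range -0.870 to 0.970. miR-21-5p stood at 2.08, 2.38, 1.79 and 1.29 on ACLT arrays 1 to 4 and at 1.51, 1.02, 0.60 and 1.72 on sham arrays 1 to 4. It shared with miR-34a-5p the order of the highest pair, ACLT 2 and ACLT 1, and of the lowest pair, sham 2 and sham 3. Its difference was 0.67 (SE 0.32, limma adjusted p = 0.645), with overlapping groups.

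The second was miR-140-5p, a miRNA abundant in cartilage (r = 0.921, rho = 0.881). It stood at -1.82, -1.56, -2.52 and -2.53 on ACLT arrays 1 to 4 and at -2.18, -2.49, -3.20 and -2.10 on sham arrays 1 to 4. Its difference was 0.38 (SE 0.33, limma adjusted p = 0.840). The next were miR-98-5p (r = 0.774), miR-27b-3p (r = 0.765) and let-7d-5p (r = 0.757), with differences of 0.03, 0.14 and 0.14. Without ACLT 2 and sham 3, the arrays farthest from the median of miR-34a-5p, r was 0.907 for miR-21-5p and 0.670 for miR-140-5p, and it was 0.352, 0.065 and -0.267 for the other 3, whose likeness rested on those arrays. Without scaling and under 4 other scalings r was 0.899 to 0.995 for miR-21-5p and 0.864 to 0.988 for miR-140-5p. Without scaling it was 0.967 to 0.977 for the other 3 too. Unscaled levels all carry the array's brightness, so a high r there does not set miR-21-5p and miR-140-5p apart. These values share the array and its scaling factor, and the arrays differ in brightness, so they are descriptions without a p.

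**Figure D5:**
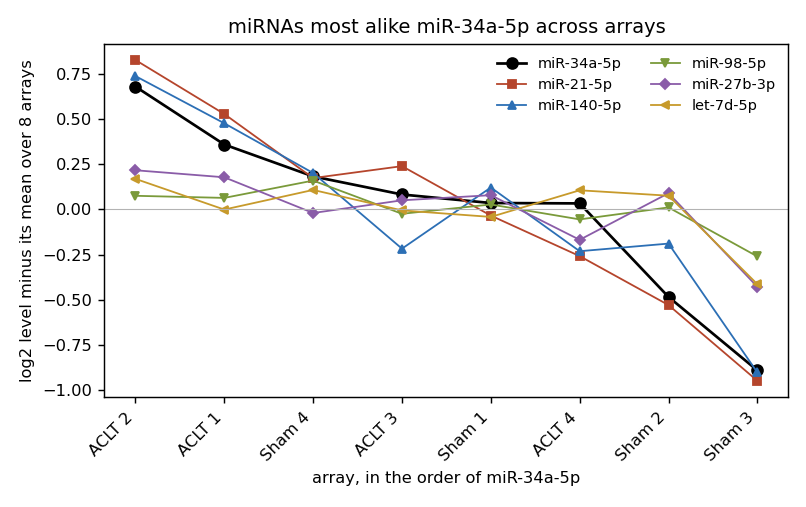
Log2 level of miR-34a-5p (black) and of the 5 miRNAs with the most similar pattern, each minus its own mean over the 8 arrays, with arrays in the order of miR-34a-5p. miR-21-5p and miR-140-5p fall from ACLT 2 to sham 3 over a range like that of miR-34a-5p, and the other 3 stay near 0 except on sham 3.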

How the data were processed

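Total RNA, isolated with RNAiso plus per the labels, was hybridized to 8 single-colour (Cy3) Agilent rat miRNA arrays on 1 slide. The labels name a Low Input Quick Amp kit and 50 ng of RNA; such a kit is meant for mRNA, and its use here could not be checked. Scanned images had been quantified in Agilent's Feature Extraction, version 10.7.3.1, with protocol miRNA_107_Sep09 and design 070154, per the file headers. From the deposited scanner output the processed signal was taken, a linear intensity with the background subtracted and no scaling between arrays, per the file headers. In the authors' deposited value table each entry was identical to the total gene signal of that miRNA in the scanner output (largest difference 0).

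Control spots and outlier spots (9.01% to 11.1%) were left out and spots averaged per probe. A probe was well above background where at least 0.5 of its spots were. Signals were divided, array by array, by the 75th percentile of the 136 probes that passed this on all 8, values under 0.0449 were set to that floor, and log2 was taken. A miRNA was represented by its brightest probe over all arrays. The 113 miRNAs detected throughout ACLT, sham or both were tested with limma 3.58.1 in R 4.3.3 (lmFit, eBayes, no covariate) with Benjamini-Hochberg adjustment at 0.05. Named miRNAs were the members, their other strands, the same seed, the lists tied to p53 and the 5 most alike by Pearson correlation. The steps were tested on simulated data. Members, lists and tests were chosen with earlier results of these data known. Alternatives covered scaling, probe summary, filters, floors, variance model, blocks and leaving out each array.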

Additional observations from a re-analysis of the deposited data

Results flagged for a closer look

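Within each group of 4 arrays, 38 sets of values, of the family, of the miRNAs tied to p53 and of the 5 miRNAs most like miR-34a-5p in pattern, were checked for 1 array far from the others. Chance marks about 1 in 20 such sets, or 1.9 here, and 3 were found. The sets share arrays, and some are probes of the same miRNA, so they are not independent and these counts are no test. The brighter probe of miR-34b-5p read 28.3 on sham 4 against 9.62 to 11.1 on the other sham arrays, a gap of 0.919 of the group's range. Its dimmer probe read 9.97 on sham 4 against 2.24 to 3.07, a gap of 0.892 of the range. Both are unscaled signals and sham 4 is the brightest array. The level of miR-22-3p was 0.97 on ACLT 2 against 1.29 to 1.32 on the other ACLT arrays, a gap of 0.901 of the range.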

How the results depend on the processing

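The difference of miR-34a-5p was above 0 and did not pass limma's adjusted p under any of 30 alternatives (0.34 to 0.96, adjusted p 0.215 to 1), of which 3 had an unadjusted p under 0.05; leaving out 1 array gave 0.38 to 0.74. The count of tested miRNAs past the threshold, 0, stayed at 0 when any 1 array was left out, and was 1 (lower) in the deposited value table without scaling and 8 (all lower) within slide row 1; the cause was not tested. With the rule that a probe be well above background on at least 0.5 of its spots, miR-34b-5p was detected on 2 arrays instead of 4 and miR-34c-5p on 0 instead of 1. With the replicate number as a block, miR-34a-5p differed by 0.58 (SE 0.27, limma adjusted p = 0.704) and 0 miRNAs passed. Same-numbered deviations correlated at -0.19, 0.59, 0.80 and -0.41. These few correlations, which also carry array brightness, cannot settle whether the numbers pair the samples. Normexp background correction (offset 50), run on each spot's median signal in place of the mean signal, gave miR-34a-5p a difference of 0.37. With 4 arrays a group, the number of arrays limits the precision, and signals near background limit miR-34b-5p and miR-34c-5p.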
